A study of Mus musculus with 20 samples.

Results

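The 34 genes described here code for the enzymes of glycolysis, the carriers that move sugar and lactate, the gate that admits pyruvate to mitochondria, and part of the cell's answer to low oxygen. They were chosen by symbol, and all 34 were found among the 16003 genes of the count table. Together they held 397065 of the UMIs counted in 21016 cells, or 0.488% of all UMIs. A UMI is a molecular tag that counts each captured transcript once, and levels are given as CPM, the UMIs of a gene scaled to a common UMI total of the cluster in a library. The chemistry captures the 3′ end of each transcript, so a longer transcript gives no more UMIs and CPM was not divided by length. Gapdh alone held 28.7% of the UMIs of the 34 genes, and the 5 most counted genes held 57.7%.

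The cells came from the spinal cords of female C57BL/6J mice aged 8 to 10 weeks. Mice had a laminectomy alone (sham) or a contusion at T9 and were studied at 7 or 28 days post-injury (dpi), and the labels give the sham libraries no single day. They were fed vehicle chow or chow with 1200 ppm of PLX5622, an inhibitor of the Csf1 receptor that removes microglia, from 2 weeks before surgery. Each of the 6 conditions was 1 library made from a pool of mice, so differences between libraries have no replicate check. All brackets below are 95% intervals that cover counting error only, and no p-value can be given.

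Glycolysis splits glucose into pyruvate, which is either reduced to lactate in the cytosol or burned in mitochondria. Several steps exist as isoenzymes with different kinetics: LDHA favours the formation of lactate, and LDHB its conversion back to pyruvate. When oxygen is short, the transcription factor subunit HIF1A is no longer degraded and raises most of these genes. Myeloid cells also raise them when activated, and astrocytes are known as the glycolytic cells of the central nervous system that pass lactate to neurons.

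The libraries differed in size and depth. Vehicle libraries had 1795 (sham), 7439 (7 dpi) and 9846 (28 dpi) cells, PLX5622 libraries 492, 504 and 940 at those stages, with 2606149 to 35694246 UMIs each. The deposited clusters were named from marker genes: microglia had the highest level of 5 of 6 microglial markers, monocyte-derived macrophages (MDMs) of 4 of 6 MDM markers, and astrocytes of all 6 astrocyte markers. Clusters 12 and 13 are called by number, since cluster 12 led in the markers of both pericytes and fibroblasts and cluster 13 in too few markers of any type. A cluster with fewer than 20 cells in a library was given no level there. Of all cells, 88 carried a barcode that also occurred in another library, and leaving them out kept the ratio of every summed level given below within its interval.

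Astrocytes stood far above the other clusters. Over all libraries the 34 genes summed to 11986 CPM [11842, 12131] in astrocytes, against 5990 CPM in proliferating cells, 5117 CPM [5095, 5140] in MDMs, 4187 CPM [4157, 4218] in microglia and 3004 CPM in cluster 12, the lowest. The astrocyte level in each of the 6 libraries was also above that of every other cluster in any library. Most of the gap was a single gene, Aldoc, the brain form of aldolase, at 4878 CPM in astrocytes and 228 CPM in the oligodendrocyte lineage, the next highest cluster. Aldoc was among the 10 leading genes of the astrocyte cluster, so its height there describes the cluster and is not a separate result.

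**Figure D1:**
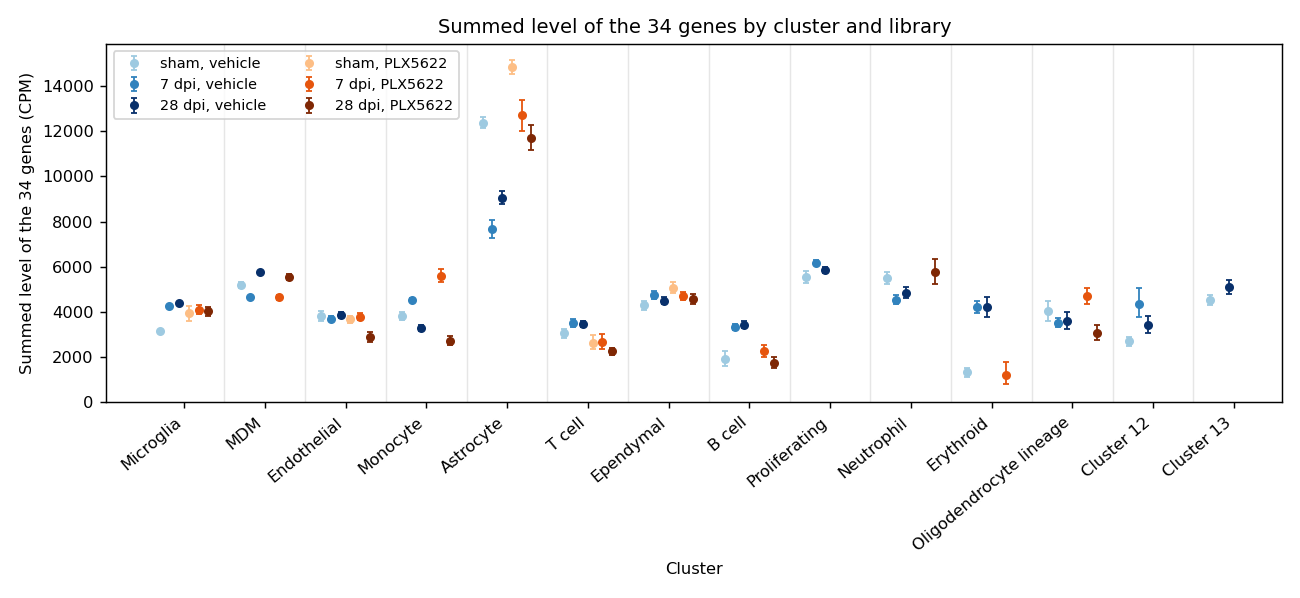
Summed level of the 34 genes (CPM, vertical axis) in each cluster (horizontal axis), with 1 point per library and exact Poisson 95% intervals as bars. The 6 astrocyte points lie between 7668 and 14826 CPM, and the highest other point is at 6181 CPM.

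The leading cluster differed between genes. Astrocytes had the highest level of 10 of the 34 genes, neutrophils of 7, cluster 13 of 5 and proliferating cells of 4, while microglia led in 2, Hk2 and Pdk1. Some leads were narrow and others wide. The highest level was 1.00-fold the second for Slc2a6 and 1.02-fold for Ldha and Pdk1, but 8.92-fold for Slc2a3 and 21.4-fold for Aldoc. The astrocyte count includes Eno1, which had only 143 UMIs in all cells. Among the carriers, Slc2a3, the neuronal-type glucose carrier, was at 236 CPM in neutrophils and at 26.4 CPM in the next cluster. Slc16a3, the carrier that exports lactate, was at 183 CPM in neutrophils, and Hk3, the myeloid hexokinase, at 120 CPM. Slc2a3 in neutrophils was at 333 CPM in sham, 171 CPM at 7 dpi and 226 CPM at 28 dpi under vehicle and at 269 CPM at 28 dpi under PLX5622. In all 4 libraries this was above the level of Slc2a3 in any other cluster.

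Endothelial cells and cluster 13 shared another set. Ndrg1, a gene induced by hypoxia, was at 558 CPM in endothelial cells and 605 CPM in cluster 13, and at 1.69 CPM in microglia, the lowest. Slc16a1, the carrier that moves lactate across the blood-brain barrier, was at 267 and 281 CPM in these clusters and at 3.31 CPM in monocytes. In endothelial cells of the vehicle libraries Slc16a1 was at 421 CPM [351, 499] in sham, 309 CPM [281, 339] at 7 dpi and 145 CPM [121, 173] at 28 dpi, so the intervals did not overlap. Under PLX5622 it was at 269, 310 and 168 CPM at the same stages, again lowest at 28 dpi. Markers of other cells moved with the vehicle values. The 12 myeloid genes summed to 1650, 9320 and 11479 CPM in these endothelial cells, the pericyte markers to 97.1, 800 and 2111 CPM and the 6 endothelial markers to 21999, 14267 and 14434 CPM. Under PLX5622 the myeloid genes summed to 105, 1791 and 1338 CPM. Their part in the Slc16a1 values was not tested. Egln3, the prolyl hydroxylase that marks HIF1A for degradation and is itself induced by hypoxia, was at 100 CPM in cluster 13 and at 25.8 CPM in ependymal cells, the next highest.

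**Figure D2:**
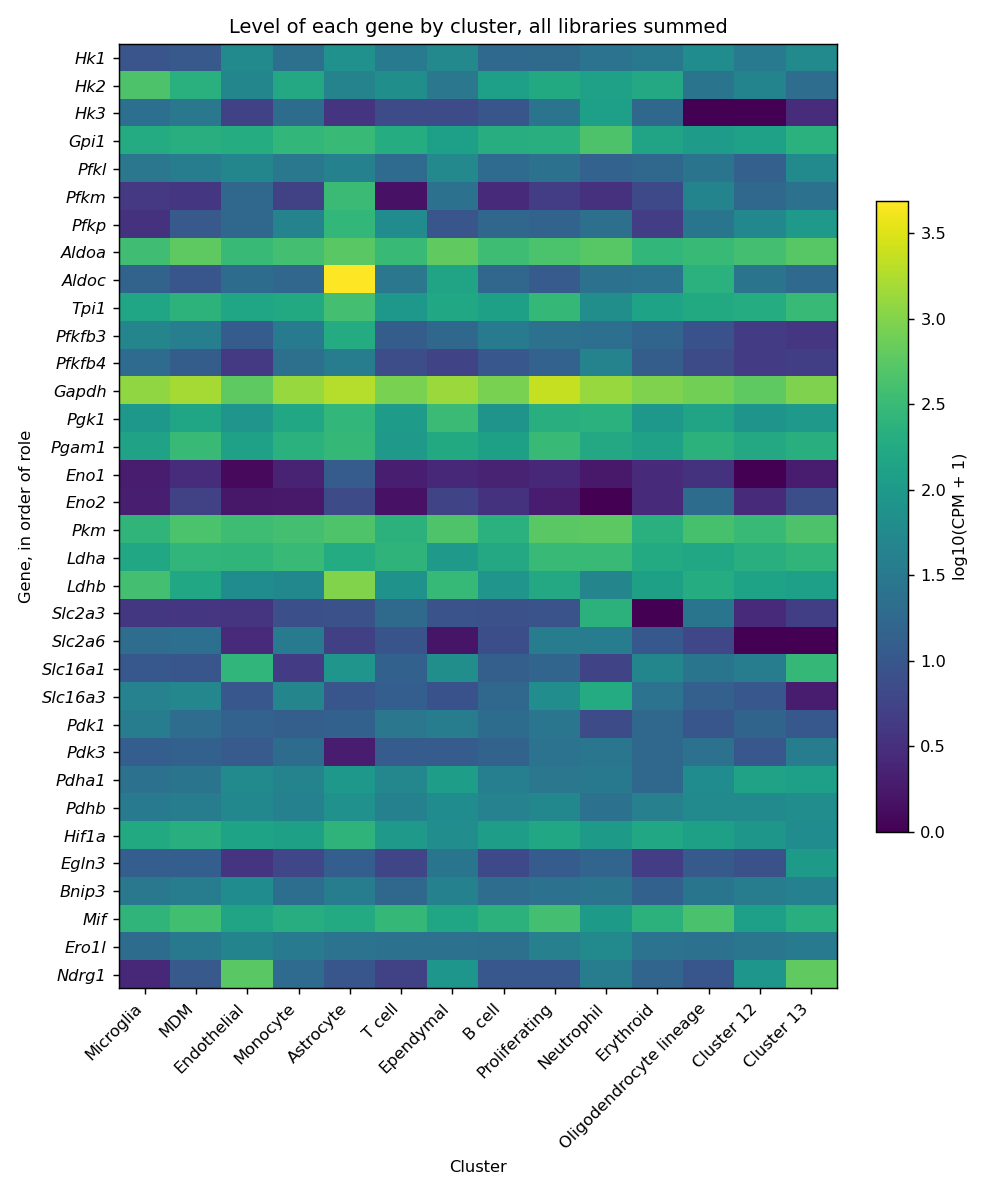
Level of each of the 34 genes (rows, in order of role) in each of the 14 clusters (columns), as log10 of CPM plus 1 over all libraries. Gapdh is high in every cluster, whereas Aldoc stands out in astrocytes, Slc2a3 in neutrophils, and Ndrg1 and Slc16a1 in endothelial cells and cluster 13.

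The clusters also differed in which isoenzyme held most UMIs of a step. Of the hexokinase UMIs, which trap glucose in the cell, Hk2 held 93.9% in microglia and 85.0% in MDMs, while Hk1 held 61.4% in astrocytes and 71.0% in the oligodendrocyte lineage. Astrocytes differed by library: Hk1 held 82.9% in sham under vehicle and 86.0% in sham under PLX5622, but 35.7% at 7 dpi and 30.6% at 28 dpi under vehicle, where Hk2 held 64.3% and 61.1%. Hk2 was on 1 UMI in each of these 2 libraries in the astrocytes with under 3 UMIs of 12 myeloid genes. Neutrophils differed too: Hk3 held 60.8% in sham, 39.4% at 7 dpi and 35.0% at 28 dpi under vehicle and 36.4% at 28 dpi under PLX5622, and Hk2 27.8%, 52.3%, 55.0% and 63.6%. The 12 myeloid genes summed to 7104, 16413, 17739 and 8225 CPM in these neutrophils, and their part in the shares was not tested. Of the phosphofructokinase UMIs, the committed step, Pfkl held 83.8% in microglia and 73.9% in MDMs. Astrocytes had mainly Pfkm (50.2%) and Pfkp (43.5%), and Pfkp held 75.7% in T cells.

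For lactate dehydrogenase, microglia were nearer to astrocytes than to MDMs. Ldha held 86.6% of the family's UMIs in neutrophils, 85.9% in monocytes, 81.1% in endothelial cells and 62.9% in MDMs, but 30.1% in microglia, 24.2% in ependymal cells and 15.9% in astrocytes. Slc16a3 held 81.7% of the Slc16a1 and Slc16a3 UMIs in microglia and 85.4% in MDMs, while Slc16a1 held 90.6% in astrocytes and 96.7% in endothelial cells. Microglia thus paired an Ldhb-rich dehydrogenase mix with the export carrier Slc16a3. The Slc16a1 share of astrocytes differed by library. Under vehicle it was 96.1% of 76 UMIs in sham but 50% of 30 UMIs at 28 dpi, and it was 100% in each PLX5622 library. Enolase could not be compared: Eno1 had only 143 UMIs in all cells and its near-identical copy Eno1b had 157, so reads shared by both may have been left uncounted. Gapdh has many processed copies in the genome as well, and its level is uncertain for the same reason.

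**Figure D3:**
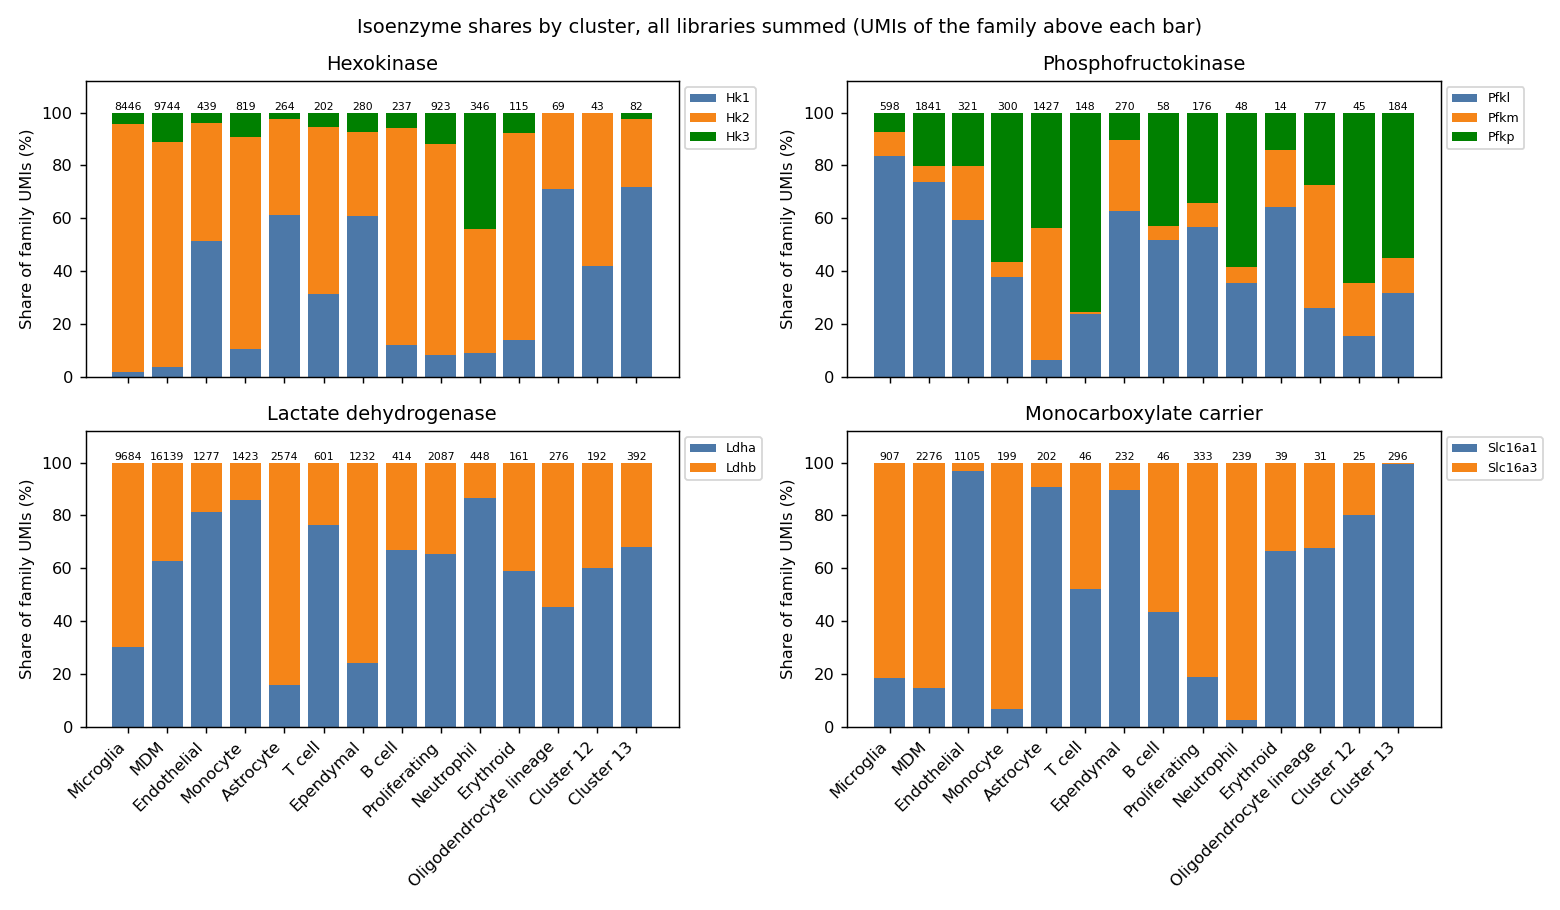
Share of a family's UMIs (percent, vertical axis) held by each isoenzyme in each of the 14 clusters, for hexokinases, phosphofructokinases, lactate dehydrogenases and monocarboxylate carriers, with the family's UMIs above each bar. Hk2, Pfkl and Ldhb make up most of the microglial bars, and Hk1, Pfkm with Pfkp, and Ldhb those of astrocytes.

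In microglia, the question was how the 34 genes differed between injured and sham cord under vehicle. The summed level was 3138 CPM [3063, 3215] in sham, 4277 CPM [4227, 4326] at 7 dpi and 4406 CPM [4360, 4452] at 28 dpi. The log2 ratio to sham was 0.45 [0.41, 0.49] at 7 dpi and 0.49 [0.45, 0.53] at 28 dpi, and 0.19 and 0.26 when Gapdh was left out of the sum. The 34 genes did not move as a block: Aldoa, Gapdh, Hif1a, Mif and Slc2a6 were at least 2-fold higher at both times, while Hk2, the main hexokinase, was lower.

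A gene was counted as higher or lower when its CPM differed at least 2-fold and it had at least 100 UMIs in both libraries together, a minimum that 24 of the 34 genes passed at 7 dpi and 27 at 28 dpi. At 7 dpi 5 genes were higher and 2 lower, where 4.02% of all genes were higher and 21.5% lower. At 28 dpi 8 were higher and 1 lower, where 3.62% of all genes were higher and 12.5% lower. The median of all genes lay at -0.54 at 7 dpi and -0.44 at 28 dpi, so most genes had a lower CPM in the injured libraries. The median of the genes that passed was -0.08 and 0.14, and 18 of 24 and 20 of 27 lay above the median of all genes. With edgeR's TMM factors, which place the median of all genes at 0.09 and 0.06, 10 and 11 of the genes were at least 2-fold higher and none lower.

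Mif, a secreted cytokine that is also induced by hypoxia, differed most. It was at 65.4 CPM [54.9, 77.3] in sham, 260 CPM [248, 273] at 7 dpi and 314 CPM [302, 327] at 28 dpi, a fold of 3.98 and 4.80. Hif1a, the oxygen-regulated subunit itself, was at 68.7, 185 and 196 CPM, with log2 ratios of 1.43 [1.18, 1.69] and 1.51 [1.27, 1.77]. Both genes were lowest in sham, and their sham intervals lay below those of both injured libraries. Egln3 was at 4.77, 10.5 and 14.3 CPM, and 2.99-fold higher at 28 dpi, though on only 10 UMIs in sham. The other hypoxia genes were flat or sparse: Bnip3, a mitochondrial protein of mitophagy, was at 31.0, 29.2 and 28.6 CPM, Ero1l, an oxidase of the endoplasmic reticulum, at 21.9, 16.0 and 22.5 CPM, and Ndrg1 stayed below 2.2 CPM.

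Among the enzymes, Aldoa and Gapdh passed 2-fold at both times. Aldoa, the aldolase of most tissues, was at 169, 365 and 416 CPM. Gapdh was at 539 CPM [508, 571], 1315 CPM [1288, 1343] and 1288 CPM [1263, 1313], a fold of 2.44 and 2.39. Tpi1 (triose phosphate isomerase) was at 79.2, 142 and 171 CPM and Pkm (pyruvate kinase) at 146, 263 and 293 CPM, and both passed 2-fold at 28 dpi only. Pgk1, phosphoglycerate kinase, was 1.66-fold and 1.94-fold higher, and Gpi1, which feeds phosphofructokinase, 1.46-fold and 1.47-fold. Slc2a6, a lysosomal sugar carrier, was at 7.16, 25.6 and 18.5 CPM. Pgam1, phosphoglycerate mutase, was at 119, 141 and 131 CPM.

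Hk2 and several regulators of the pathway had a lower CPM after injury, of which Pfkfb3 passed 2-fold at 7 dpi and none with TMM factors. Hk2 was at 725 CPM [689, 762] in sham, 431 CPM [416, 447] at 7 dpi and 370 CPM [357, 384] at 28 dpi, with log2 ratios of -0.75 and -0.97. With TMM factors the ratios of Hk2 were -0.11 and -0.47. They lay below the median of all genes with either scaling, since the factors shift all genes alike. Pfkfb3, which makes the activator of phosphofructokinase, was at 77.3, 37.3 and 48.1 CPM. Pdk1, the kinase that closes pyruvate dehydrogenase, was at 50.6, 30.8 and 34.7 CPM, and with TMM factors its log2 ratios were -0.08 and -0.04. The pyruvate dehydrogenase subunits Pdha1 and Pdhb were at 26.2, 24.0 and 20.8 CPM and at 45.8, 31.7 and 27.7 CPM. The lactate dehydrogenase mix differed as well: Ldha was at 111, 161 and 184 CPM and Ldhb at 475, 375 and 361 CPM. The share of Ldha was 19.0% [16.8, 21.3] in sham, 30.1% [28.6, 31.6] at 7 dpi and 33.8% [32.4, 35.2] at 28 dpi. This share does not depend on the scaling, whereas the log2 ratio of Ldhb was -0.34 and -0.40 by CPM and 0.29 and 0.10 with TMM factors.

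The other members were close between the microglial libraries or were sparse. Hk1 and Hk3 were at 9.07, 9.03 and 7.06 CPM and at 28.6, 19.6 and 19.7 CPM in sham, at 7 dpi and at 28 dpi. Pfkl was at 26.2, 25.0 and 28.2 CPM and Pfkfb4, a partner of Pfkfb3, at 24.3, 16.4 and 17.4 CPM. Slc16a1 and Slc16a3 were at 12.9, 7.41 and 9.84 CPM and at 40.1, 37.3 and 46.0 CPM, and Pdk3, another kinase of pyruvate dehydrogenase, at 10.0, 11.6 and 12.4 CPM. Pfkm, Pfkp, Eno1, Eno2, Slc2a3 and Ndrg1 had 16 to 54 UMIs each in all microglia, or at most 3.05 CPM.

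Aldoc was at 30.1, 10.2 and 12.5 CPM in microglia, and the 6 astrocyte markers summed to 168, 91.2 and 128 CPM in the same cells. The part of astrocyte transcripts in this value was not tested. Other values moved with the comparison of injured and sham microglia. The 10 dissociation and stress genes summed to 10610 CPM in sham, 2380 CPM at 7 dpi and 2042 CPM at 28 dpi. The 6 microglial markers summed to 12690, 4617 and 4857 CPM, and the 6 MDM markers to 57.7, 4133 and 4030 CPM (2 of the 6 at 0 in sham, 1 at 28 dpi), against 35581 and 20361 CPM in the MDM cluster of the injured libraries. The part of these in the microglial ratios was not tested.

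The few microglia left under PLX5622 had 29 cells in sham, 61 at 7 dpi and 126 at 28 dpi. Their summed level was 3933 CPM [3613, 4273], 4106 CPM [3906, 4314] and 4023 CPM [3835, 4217], and these intervals overlapped. Mif was at 120, 250 and 298 CPM and Hif1a at 70.6, 136 and 133 CPM. Both values were lowest in sham, where the 29 cells held 141635 UMIs of all genes. Each thus rested on few UMIs there, and the sham interval of Hif1a overlapped those after injury. Hk2 was at 678 CPM [549, 828], 493 CPM [425, 569] and 649 CPM [575, 730], and at 28 dpi this interval lay above that of the vehicle library. Ldha held 17.6%, 30.2% and 24.8% of the lactate dehydrogenase UMIs.

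**Figure D4:**
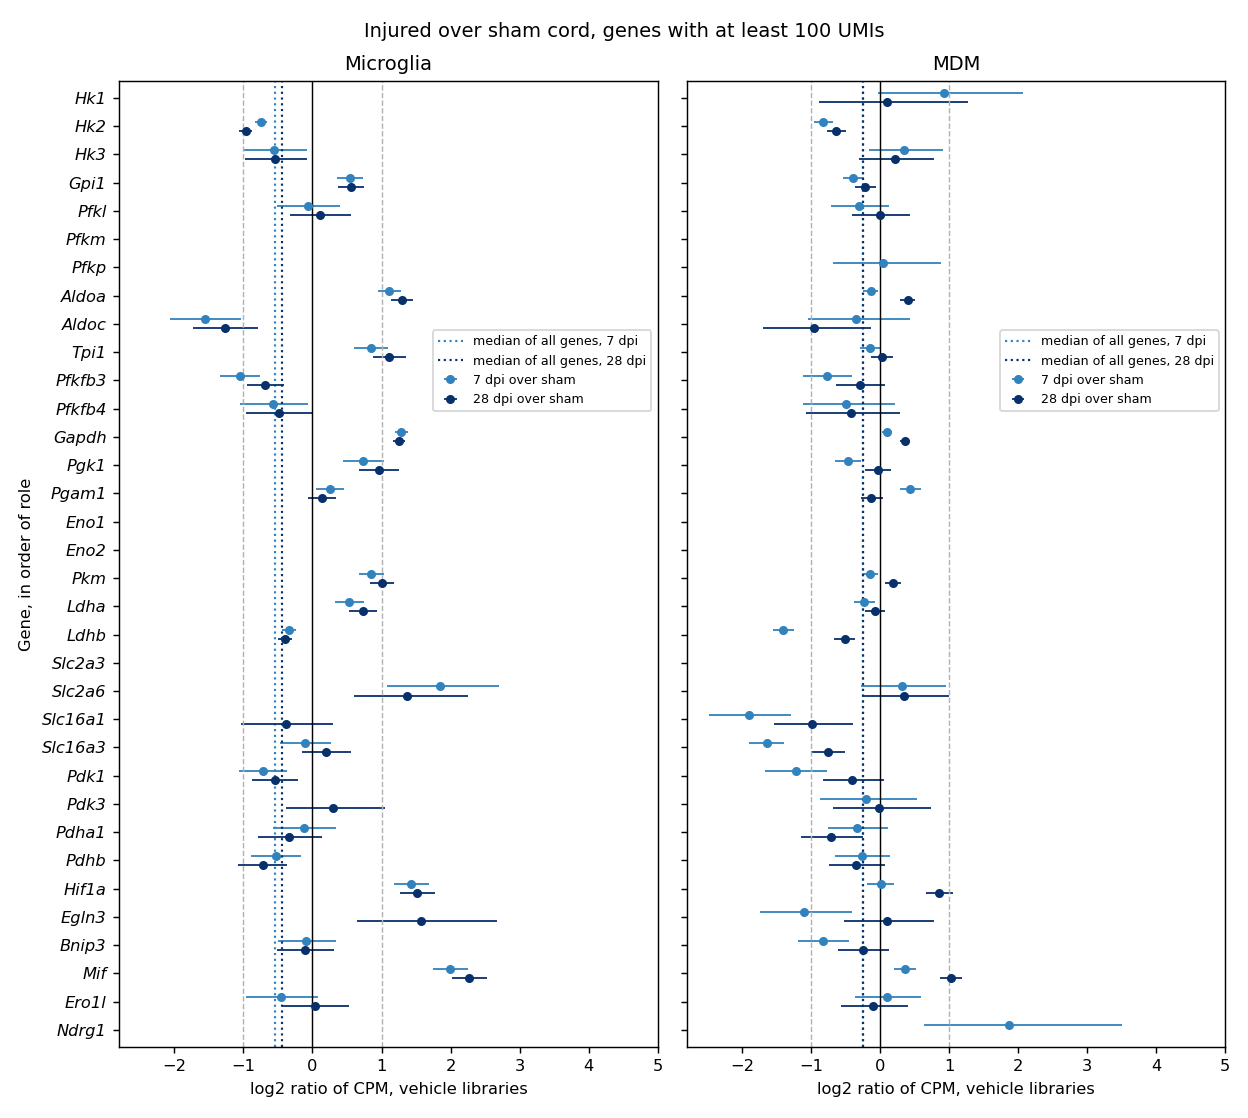
Log2 ratio of CPM (horizontal axis) for each of the 34 genes with at least 100 UMIs (rows), at 7 and 28 dpi over sham under vehicle, in microglia (left) and MDMs (right). Bars are exact conditional binomial 95% intervals, dotted lines the median of all genes and dashed lines a 2-fold difference, and Mif, Hif1a, Gapdh and Aldoa lie beyond 2-fold at both times in microglia but not at both times in MDMs.

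The 5 genes that were at least 2-fold higher in microglia at both times were also read in their promoters, because the core of the element that HIF1A binds is known. Promoter letters were taken from RefSeq (build GRCm38.p6) from 250 bases before to 50 after the start, for 31 of the 34 genes. The core was searched as ACGTG and GCGTG on both strands, and ACGTG lies inside the E-box CACGTG that other factors bind. It was present in 25 of 31 promoters (80.6%), in 60.0% of the promoters of the genes in the count table, and in 43.8% of all promoters in the RefSeq table. Median GC content was 62.0% in the 31 promoters and 60.3% in those of the count table. The 120 bases just before the start are shown for the 5 genes, in lower case, 5′ to 3′ on the coding strand, with each core match in capitals. The stretches lie at chr6:125165774-125165893 (Gapdh), chr2:27027999-27028118 (Slc2a6), chr7:126800448-126800567 (Aldoa) and chr10:75860278-75860397 (Mif) on the minus strand and at chr12:73907747-73907866 (Hif1a) on the plus strand.
Gapdh: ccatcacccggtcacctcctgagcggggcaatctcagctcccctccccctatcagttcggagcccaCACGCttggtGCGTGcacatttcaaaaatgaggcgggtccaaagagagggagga
Slc2a6: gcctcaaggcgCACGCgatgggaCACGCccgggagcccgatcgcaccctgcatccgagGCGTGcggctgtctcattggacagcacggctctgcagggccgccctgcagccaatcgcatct
Hif1a: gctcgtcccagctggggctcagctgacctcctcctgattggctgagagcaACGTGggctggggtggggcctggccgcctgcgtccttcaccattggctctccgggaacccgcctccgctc
Mif: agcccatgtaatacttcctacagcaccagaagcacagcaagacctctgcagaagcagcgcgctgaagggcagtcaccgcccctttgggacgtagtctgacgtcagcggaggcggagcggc
Aldoa: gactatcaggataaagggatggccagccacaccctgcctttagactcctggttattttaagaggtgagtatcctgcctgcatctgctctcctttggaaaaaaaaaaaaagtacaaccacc
Gapdh held 2 matches in this stretch, Slc2a6 3 and Hif1a 1, and Mif and Aldoa held none. Over the full 300 bases the counts were 3 for Gapdh, 4 for Slc2a6, 3 for Hif1a and 1 for Mif, and the Aldoa start listed first held none. A match is a run of letters and was not tested as a site.

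MDMs, the macrophages that enter from blood, had a higher summed level than microglia in each vehicle library. Their summed level under vehicle was 5183 CPM [5065, 5302] in the 185 sham cells, 4664 CPM [4634, 4694] at 7 dpi and 5783 CPM [5743, 5823] at 28 dpi, lowest at 7 dpi. The log2 ratio to sham was -0.15 [-0.19, -0.12] at 7 dpi, which became 0.20 with TMM or DESeq2 factors, and 0.16 [0.12, 0.19] at 28 dpi. The genes at least 2-fold lower at 7 dpi were Ldhb, Slc16a1, Slc16a3, Pdk1 and Egln3, and the higher ones were Ndrg1 at 7 dpi and Mif at 28 dpi.

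At 7 dpi 30 of the 34 genes passed the minimum, of which 1 was higher and 5 lower, where 4.09% of all genes were higher and 11.0% lower. At 28 dpi 28 passed, of which 1 was higher and none lower, where 1.53% and 5.63% of all genes were. The median of the genes that passed was -0.24 at 7 dpi and -0.09 at 28 dpi, beside -0.25 at both times for all genes. With TMM factors 3 genes stayed lower at 7 dpi, Ldhb, Slc16a1 and Slc16a3. Hk1 and Ndrg1 were then at least 2-fold higher at 7 dpi, and Hif1a and Mif at 28 dpi.

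Ldhb and both lactate carriers were lowest at 7 dpi. Ldhb was at 302 CPM in sham, 115 CPM [110, 119] at 7 dpi and 212 CPM [204, 220] at 28 dpi, a log2 ratio of -1.40 and then -0.51. Slc16a3 was at 111 CPM [94.7, 130], 35.7 CPM [33.1, 38.4] and 65.8 CPM [61.6, 70.2], and Slc16a1 at 22.6, 6.04 and 11.4 CPM. Pdk1 was at 35.3, 15.1 and 26.7 CPM and Bnip3 at 49.4, 27.7 and 41.6 CPM. For these 5 genes sham was highest and 7 dpi lowest. Ldha was at 297, 254 and 282 CPM, and its share was 49.5% [46.1, 52.9] in sham, 68.9% [67.8, 70.0] at 7 dpi and 57.1% [55.9, 58.3] at 28 dpi.

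Of the 6 hypoxia response genes in MDMs, Mif was at least 2-fold higher at 28 dpi and Ndrg1 at 7 dpi, and Egln3 was lower at 7 dpi. Hif1a was at 162 CPM [142, 185] in sham, 163 CPM [158, 169] at 7 dpi and 293 CPM [284, 302] at 28 dpi. Mif was at 236 CPM [211, 262], 303 CPM [295, 311] and 481 CPM [470, 493]. Aldoa was at 539, 491 and 711 CPM and Gapdh at 1367, 1466 and 1754 CPM, so all 4 genes were highest at 28 dpi. Hk2 was highest in sham at 353 CPM and was at 199 and 227 CPM after injury. Pgam1 alone among the lower enzymes was highest at 7 dpi, at 252, 342 and 231 CPM.

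The remaining genes of MDMs are given in the order sham, 7 dpi and 28 dpi. Gpi1 was at 262, 200 and 226 CPM, Tpi1 at 251, 228 and 257 CPM, Pgk1 at 179, 130 and 175 CPM and Pkm at 439, 395 and 499 CPM. All 4 were lowest at 7 dpi. Pfkfb3 was at 53.6, 31.4 and 43.8 CPM, Pfkfb4 at 15.5, 11.1 and 11.5 CPM, Pdha1 at 35.3, 28.1 and 21.5 CPM and Pdhb at 40.9, 34.1 and 32.2 CPM. Ero1l was at 28.9, 31.0 and 27.0 CPM, Hk3 at 22.6, 28.8 and 26.2 CPM, Slc2a6 at 17.6, 21.9 and 22.4 CPM and Pdk3 at 14.1, 12.2 and 13.99 CPM. These 4 had overlapping sham and 28 dpi intervals. Egln3 was at 16.2, 7.55 and 17.3 CPM, and Ndrg1 at 3.53, 12.9 and 4.62 CPM on 5 UMIs in sham. Pfkp was at 11.3, 11.7 and 3.75 CPM, on 16 UMIs in sham and 52 at 28 dpi, under the minimum. Hk1, Pfkm, Aldoc, Eno1, Eno2 and Slc2a3 were at most at 12.7 CPM in each vehicle library.

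The sham cells of the MDM cluster were unlike those of injured cord in their markers. The 6 MDM markers summed to 9571 CPM in sham, 35581 CPM at 7 dpi and 20361 CPM at 28 dpi, and the 6 microglial markers to 3803, 1136 and 1673 CPM. The stress genes summed to 3921, 1151 and 1062 CPM. The part of these differences in the MDM ratios to sham was not tested.

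PLX5622 was compared with vehicle in MDMs of injured cord, where 100 and 161 cells were counted under PLX5622. The summed level was 4641 CPM [4540, 4743] at 7 dpi, a log2 ratio of -0.01 [-0.04, 0.03] to vehicle, and 5547 CPM [5419, 5677] at 28 dpi, a ratio of -0.06 [-0.10, -0.03]. At 7 dpi 2 of 30 genes were higher and 1 lower, where 1.83% of all genes were higher and 2.17% lower. None of 28 genes differed 2-fold at 28 dpi, where 2.33% of all genes were higher and 2.48% lower.

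The 2 higher genes at 7 dpi were Pfkl and Pfkp, both phosphofructokinases. Pfkl was at 30.4 CPM [28.0, 32.9] under vehicle and 67.6 CPM [55.9, 80.9] under PLX5622, and Pfkp at 11.7 CPM [10.2, 13.3] and 30.3 CPM [22.7, 39.7]. Pfkp was also 4.14-fold higher at 28 dpi, at 3.75 and 15.5 CPM, but on 72 UMIs in all, under the minimum. The ratio of Pfkl at 7 dpi was 0.36 on the log2 scale after thinning each cell to 1000 UMIs. Slc2a6 was lower at 7 dpi, at 21.9 and 10.3 CPM. Median UMIs per MDM were 15945 under PLX5622 and 5777 under vehicle at 7 dpi, and 6843 and 3875 at 28 dpi. At 7 dpi 54 of 100 MDMs under PLX5622 and 127 of 3023 under vehicle had over 3000 genes, and the MDM markers summed to 64242 and 35581 CPM. The part of these in the ratios was not tested. Gapdh was lower under PLX5622 at both times, by a log2 ratio of -0.29 [-0.36, -0.23] at 7 dpi and -0.29 [-0.36, -0.23] at 28 dpi, and Ldhb by -0.43 and -0.57.

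In astrocytes, the summed level under vehicle was 12380 CPM [12134, 12630] in sham, 7668 CPM [7273, 8079] at 7 dpi and 9063 CPM [8775, 9358] at 28 dpi. Under PLX5622 it was 14826 CPM [14516, 15141], 12693 CPM [12021, 13393] and 11711 CPM [11172, 12268]. At 28 dpi over sham under vehicle the log2 ratio was -0.45 [-0.50, -0.40]. Myeloid transcripts in the astrocyte droplets moved with this lower level, and the ratio had the other sign in astrocytes with few of them. Few meant under 3 UMIs, a raw count per cell that was not scaled to depth. Under PLX5622 the level at 28 dpi was also below that of sham. The part of myeloid transcripts in the lower level was not tested.

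Of the vehicle astrocytes, 4.19% had at least 3 UMIs of 12 myeloid genes in sham, 60.9% at 7 dpi and 49.8% at 28 dpi, and the 12 genes summed to 1842, 22155 and 21045 CPM. Under PLX5622 these cells were 2.45%, 12.8% and 3.74%. Among the astrocytes with under 3 myeloid UMIs, the 34 genes summed to 12556 CPM [12303, 12814] in sham, 12903 CPM [11800, 14082] at 7 dpi (27 cells) and 13695 CPM [13073, 14340] at 28 dpi (123 cells). The log2 ratio at 28 dpi was then 0.13 in place of -0.45. Aldoc was at 5308, 2678 and 2929 CPM in all vehicle astrocytes and at 5409, 6516 and 5969 CPM in those with few myeloid UMIs. Ldhb was at 1090, 648 and 628 CPM in all and at 1113, 1154 and 1100 CPM in these. Hk2, the hexokinase of microglia and MDMs, was at 15.4, 147 and 106 CPM in all astrocytes, and was on 5, 1 and 1 UMIs in those with few myeloid UMIs.

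Pfkp and Mif differed from sham in either set of astrocytes, but Pfkp by less at 28 dpi in those with few myeloid UMIs. Of 16 genes that passed the minimum at 28 dpi over sham, Mif was higher and Pfkp lower, where 13.6% of all genes were higher and 17.9% lower. The median of the 16 was -0.46 and that of all genes -0.35. Pfkp, the platelet and brain phosphofructokinase, was at 389 CPM [346, 435] in sham, 65.3 CPM [33.7, 114] at 7 dpi and 116 CPM [85.5, 154] at 28 dpi. In astrocytes with few myeloid UMIs it was at 395 CPM [351, 443], 103 CPM [28.0, 263] and 234 CPM [159, 332]. Under PLX5622 all astrocytes had 375 CPM [327, 428], 95.2 CPM [45.7, 175] and 185 CPM [123, 267], lower after injury too. Pfkm was at 400, 125 and 217 CPM under vehicle, but at 409 and 437 CPM in sham and at 28 dpi with few myeloid UMIs.

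The other glycolytic genes of all vehicle astrocytes were mostly lower at 7 dpi. Gpi1 was at 294, 190 and 244 CPM, Tpi1 at 407, 267 and 304 CPM, Pgk1 at 324, 109 and 191 CPM and Pfkfb3 at 218, 54.4 and 135 CPM. Aldoa was at 495, 441 and 570 CPM, Pkm at 439, 332 and 444 CPM, Gapdh at 1669, 1306 and 1801 CPM and Ldha at 173, 169 and 181 CPM. In these last 4 genes the level was highest at 28 dpi, though close to sham for Pkm and Ldha. Ldha was on 135 UMIs in sham and 75 at 28 dpi. These levels are not split by myeloid UMIs here. Pgam1 was at 271, 201 and 181 CPM, Hk1 at 74.4, 81.6 and 53.1 CPM, Slc16a1 at 93.6, 49.0 and 36.2 CPM, Pdha1 at 106, 81.6 and 74.9 CPM and Pdhb at 87.2, 27.2 and 53.1 CPM. The members not named for astrocytes had 2 to 89 UMIs each in all astrocytes.

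Mif was at 94.9 CPM [74.5, 119] in sham, 261 CPM [193, 346] at 7 dpi and 258 CPM [212, 312] at 28 dpi, and at 94.3, 308 and 249 CPM in astrocytes with few myeloid UMIs. Under PLX5622 it was at 183 CPM [150, 221], 314 CPM [216, 441] and 218 CPM [150, 306], and the sham and 28 dpi intervals overlapped. Hif1a was at 269, 234 and 261 CPM under vehicle, and at 277 CPM [241, 318], 308 CPM [159, 538] and 294 CPM [209, 402] in those with few myeloid UMIs. These intervals overlapped.

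**Figure D5:**
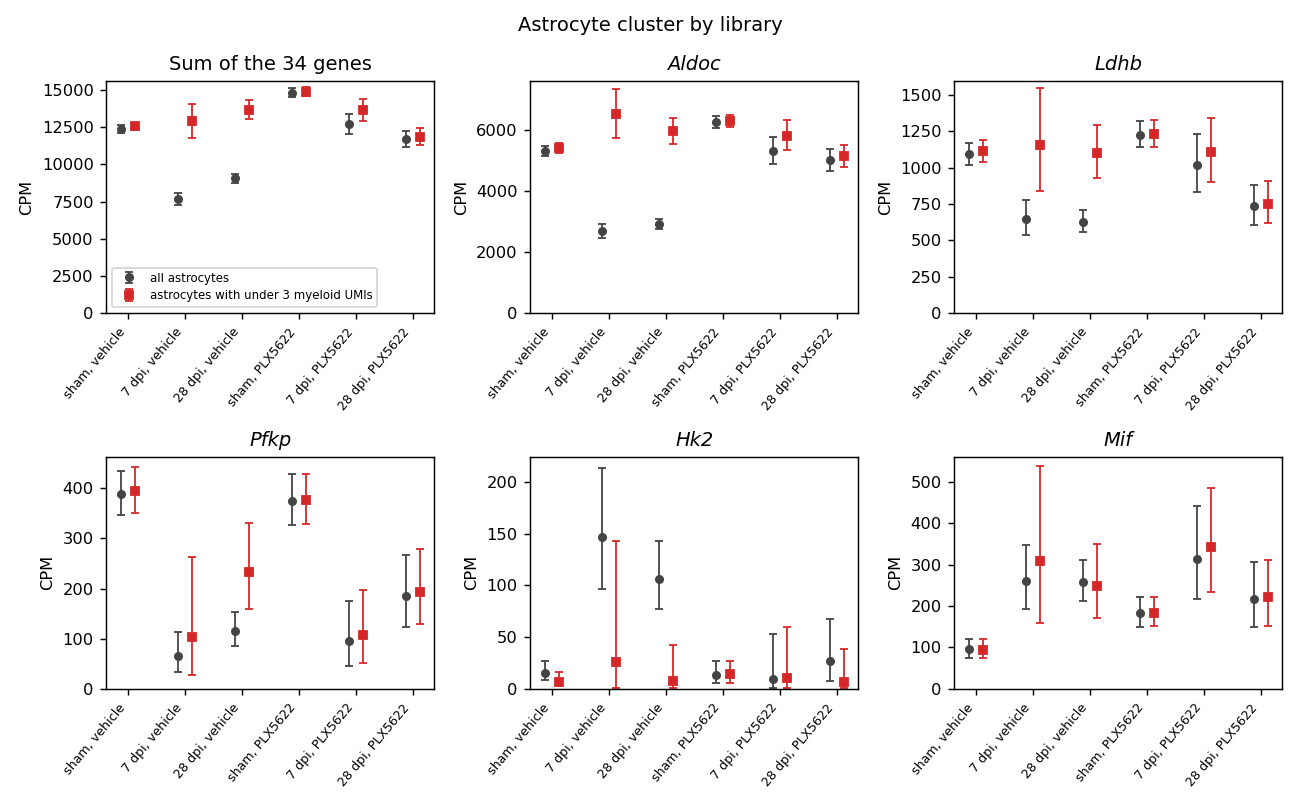
Levels in CPM (vertical axes) of the 34 genes summed, Aldoc, Ldhb, Pfkp, Hk2 and Mif in astrocytes of the 6 libraries (horizontal axes), with exact Poisson 95% intervals, for all astrocytes (circles) and those with under 3 UMIs of 12 myeloid genes (squares). The 2 sets part in the injured vehicle libraries for the sum, Aldoc, Ldhb and Hk2, and lie together in sham and under PLX5622.

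PLX5622 was also compared with vehicle in astrocytes of sham cord. None of 19 genes differed 2-fold, where 0.701% of all genes were higher and 0.701% lower. The summed level was higher under PLX5622, with a log2 ratio of 0.26 [0.22, 0.30], and -0.01 when each cell was weighted alike. Gapdh was at 1669 and 2497 CPM, a log2 ratio of 0.58, which was 0.12 with equal weights, and Aldoc at 5308 and 6261 CPM. The direction of the summed difference thus depended on how cells were weighted.

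The 46 related genes in the table, of 6 lists around the pathway, were counted in the same way. In microglia 1 of 25 that passed was higher and 6 lower at 7 dpi, beside 4.02% and 21.5% of all genes. At 28 dpi 2 of 27 were higher and 4 lower, beside 3.62% and 12.5%, so the lower counts were near the shares of all genes at both times. Pgls of the pentose phosphate pathway was at 88.3 CPM in sham and 191 CPM at 7 dpi. Bpgm, which makes 2,3-bisphosphoglycerate, was at 33.9, 9.78 and 7.06 CPM. It is among the 10 leading genes of the erythroid cluster, and the 4 erythroid markers summed to 121, 23.3 and 12.9 CPM in the same microglia. Their part in the Bpgm values was not tested. Arnt, the partner of HIF1A, was at 28.1, 12.4 and 12.1 CPM, and was less than 2-fold lower with TMM factors. Fam162a, a hypoxia-induced gene, was at 24.8 CPM in sham and 50.3 CPM at 28 dpi.

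In MDMs 1 of 33 related genes was higher and 2 lower at 7 dpi, beside 4.09% and 11.0% of all genes. None of 30 differed 2-fold at 28 dpi, beside 1.53% and 5.63%. Epas1, which codes for HIF2A, was at 12.7 CPM in sham and 37.5 CPM at 7 dpi. It was also the 1 gene of 31 that was higher under PLX5622 at 28 dpi, at 49.7 CPM against 4.83 CPM, beside 2.33% of all genes. At 7 dpi the 1 of 33 was Emb, an ancillary protein of the lactate carriers, at 66.4 CPM against 30.8 CPM, beside 1.83%. None was lower at either time, beside 2.17% and 2.48%. In astrocytes none of 17 was higher and 5 lower at 28 dpi over sham, beside 13.6% and 17.9% of all genes. Among them Ddit4, a hypoxia and stress gene, was at 132 and 26.6 CPM, and its log2 ratio was -2.31 in all astrocytes and -1.16 in those with few myeloid UMIs. Bpgm was at 204 and 38.6 CPM, a log2 ratio of -2.40 and -1.06 in these sets, and the erythroid markers summed to 1458 and 21.7 CPM in all astrocytes. Their part in the Bpgm values was not tested. The other 3, Plod2, Pdk2 and Mpc2, had ratios of -0.51, -0.37 and -0.32 in astrocytes with few myeloid UMIs. None of 19 differed under PLX5622 in sham astrocytes, beside 0.701% of all genes in each direction.

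Erythroid cells had 1319 CPM of the 34 genes in sham, and 4204 and 4210 CPM at 7 and 28 dpi under vehicle. The name held in sham, where the 4 erythroid markers summed to 140473 CPM, but not after injury under vehicle, where they summed to 4038 and 5449 CPM and the myeloid genes to 38945 and 34802 CPM. In the 25 cells at 7 dpi under PLX5622 the markers summed to 190892 CPM and the 34 genes to 1214 CPM.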

How the data were processed

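The deposited table holds raw UMI counts per gene and cell, which the authors made with Cell Ranger on mm10 (GRCm38) and filtered and clustered in Seurat. They kept genes found in at least 3 cells of a library and joined the libraries in 14 clusters; this filter removed no UMIs of the 34 genes. Cells were assigned to libraries by the day and diet at the start of their names, and their barcodes were found among those of that library. Counts were summed per cluster and library, and divided by the UMI total (CPM). Bulk RNA-seq was not analysed here.

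Python 3.11.15, numpy 2.4.6, scipy 1.17.1, edgeR 4.0.16 and DESeq2 1.42.0 (R 4.3.3) were used, the last 2 for scaling factors only. Intervals are exact (Poisson for CPM, conditional binomial for ratios, Clopper-Pearson for shares) at 95%. With 1 library per group no test was made. A gene was counted at 2-fold where its UMIs over both libraries reached 100. Most members with at least 100 UMIs in microglia, MDMs or astrocytes are given by library, and the others by range or in part. Of related genes at most the 3 highest and 3 lowest are given. The members and lists were chosen with earlier results of these data known. Scripts were tested on simulated data. Alternatives were TMM and DESeq2 factors, other totals, equal cell weights, thinning to 1000 UMIs, other minimums and subsets of cells. No doublet caller was run, and 716 cells had over 3000 genes.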

Additional observations from a re-analysis of the deposited data

How the results depend on the processing

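No paired analysis was possible because each condition is 1 library. Log2 ratios of the summed level are given below in the order of the report. With TMM factors they were 1.08 and 0.99 in microglia at 7 and 28 dpi, 0.20 (reversed) and 0.48 in MDMs, -0.073 and -0.13 for PLX5622 in MDMs, -0.25 in astrocytes at 28 dpi and 0.22 for PLX5622 in sham astrocytes. With DESeq2 factors they were 1.09 and 0.98, 0.20 (reversed) and 0.48, -0.061 and -0.12, and -0.25 in astrocytes at 28 dpi. Without ribosomal protein genes in the total they were 0.62 and 0.61 in microglia, -0.042 for PLX5622 in MDMs at 7 dpi and -0.31 in astrocytes at 28 dpi. With each cell weighted alike they were 0.40 and 0.39 in microglia, 0.0304 and -0.10 for PLX5622 in MDMs, -0.24 in astrocytes at 28 dpi and -0.014 (reversed) for PLX5622 in sham astrocytes. After thinning they were 0.10 in MDMs and -0.071 in astrocytes at 28 dpi. Without Gapdh they were 0.19 and 0.26 in microglia, -0.26 and 0.078 in MDMs, 0.11 and 0.031 (reversed) for PLX5622 in MDMs, -0.56 in astrocytes at 28 dpi and 0.20 for PLX5622 in sham astrocytes. Astrocytes under 3 myeloid UMIs gave 0.13 (reversed) at 28 dpi. The causes were not tested. Leaving out barcodes found in a second library, chosen after seeing the data, moved none of the 8 sums beyond its interval.

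Counts of genes past 2-fold were 10 higher and 0 lower in microglia at 7 dpi and 0 lower at 28 dpi with TMM or DESeq2 factors, and in MDMs 2 higher and 3 lower at 7 dpi and 2 higher at 28 dpi. With a minimum of 50 UMIs they were 1 lower in MDMs at 28 dpi, 3 higher for PLX5622 in MDMs at 28 dpi, 2 higher and 2 lower in astrocytes at 28 dpi and 1 higher for PLX5622 in sham astrocytes. With 10 UMIs they were 2 higher in MDMs at 7 dpi, 2 higher and 1 lower at 28 dpi, 3 higher for PLX5622 in MDMs at 28 dpi, 4 higher and 2 lower in astrocytes at 28 dpi and 2 higher and 1 lower for PLX5622 in sham astrocytes. Cells with at least 500 genes gave 1 lower in MDMs at 28 dpi and 1 higher for PLX5622 in sham astrocytes. Of single genes, 293 values moved and 752 did not, and none past 2-fold changed sign. Of isoenzyme shares, 27 moved, all after thinning, and 91 did not.

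Few cells (492 to 940) limit the precision in the PLX5622 libraries, whose median UMIs per cell were above those of the vehicle libraries at each stage.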
